A study of Mus musculus with 22 samples.

Results

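The genes described here are 37 lysosome genes, taken as a fixed list of symbols. They comprise 10 proteases and peptidases, 10 enzymes that degrade glycans and glycosaminoglycans, 9 enzymes, activators and carriers that handle lipids, 5 membrane proteins, and Tfeb, Tfe3 and Mitf, transcription factors of the MiT/TFE family. All 37 were found by Ensembl identifier among the 31116 genes counted in both cell types and all passed the filter on low counts. They were measured by RNA sequencing in 22 bulk samples of 2 cell types sorted from lungs of adult C57BL/6 mice. All mice carried SP-CI73T, a mutant surfactant protein C made by the alveolar epithelium. Ly6Chi monocytes (CD11b+) gave 4 control samples, 4 samples at 3 d and 4 samples at 14 d after tamoxifen. SigF+CD11b- alveolar macrophages gave 4 control samples, 3 samples at 3 d and 3 samples at 14 d. Tamoxifen, given once by gavage, activates a Flp-O recombinase expressed from Rosa26, which removes a neomycin cassette and raises the mutant protein. Controls thus carry the same allele at a lower level of expression. The labels call the controls untreated, the methods of the study pool oil treated mice with tamoxifen treated mice without Flp-O, and its results describe the controls as oil treated. The labels describe lavage of the lungs and then digestion. They do not say whether lavage cells entered the sort. The labels do not say whether a sample is 1 mouse or a pool or whether both cell types came from the same mice.

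Lysosomes are acidic organelles in which hydrolases break down proteins, glycans and lipids delivered by endocytosis, phagocytosis and autophagy. Most of the soluble enzymes are carried there from the Golgi on the mannose 6-phosphate tag, and the vacuolar proton pump (V-ATPase) acidifies the lumen. Tfeb, Tfe3 and Mitf switch on many lysosomal genes through E-box motifs in their promoters once nutrient signalling at the lysosomal surface releases them to the nucleus. Alveolar macrophages are known for a large lysosomal compartment, which takes up and degrades surfactant lipid and protein, and monocytes enlarge theirs when they mature into macrophages.

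Libraries held 15451460 to 28789639 counts in monocytes and 10692871 to 17074863 in control and 3 d macrophages, but 4610720 to 6838893 in macrophages at 14 d. The lowest count of any member in any sample was 22. Members took 2.72% to 3.8% of all counts over the 22 samples. Values are given as CPM, counts scaled to the library's TMM-adjusted total. A gene was called when edgeR's quasi-likelihood test gave a Benjamini-Hochberg adjusted p under 0.05 and the fold change was above 1.5. Between 40119 and 41134 genes had a count in monocytes at 3 d against 24775 to 30865 in their controls. At 14 d macrophages had 27699 to 30627 against 21951 to 27616. TMM over all genes then placed well-expressed genes (mean log2 CPM above 5) at a median log2 fold change of -0.55 in monocytes at 3 d and -0.56 in macrophages at 14 d. Members are therefore read against that median and under TMM factors taken from well-expressed genes alone (below, the second scaling). Sorting markers were in place in the controls, with Ly6c2 at 2570 to 3280 CPM in monocytes and Siglecf at 231 to 348 CPM in alveolar macrophages. Control monocyte samples 3 and 4 stood apart, with Krt79, an alveolar macrophage gene, at 64.6 and 34.8 CPM against 2.4 and 4.63 in samples 1 and 2. All 14 d samples of both cell types had Y-linked counts and almost no Xist, and all others the reverse. Sex and the 14 d time point therefore cannot be told apart for Gla, Lamp2, Tfe3 and any other gene.

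Promoter windows from RefSeq (GRCm38.p6, 250 bases before to 50 after a gene's start) were on hand for 33 members in 40 windows. The E-box CACGTG, which reads the same on both strands, occurred in 10 of the 33 members (30.3%) against 2187 of 27025 genes (8.09%). The longer TCACGTG, counted on both strands and always part of a CACGTG match, occurred in 9 members (27.3%) against 4.29% of genes. By role, CACGTG was present in 5 of 10 glycan enzymes, 3 of 8 proteases and 2 of 5 membrane proteins, and in none of the 7 lipid genes or the 3 MiT/TFE genes with a window. The following 30 bases of 8 members with a match are shown because these genes lead the changes or the differences between cell types described later. Each lies upstream of the RefSeq start, on the strand of the gene, with CACGTG in capitals. The start matched that of a GENCODE transcript for Ctsd, Sgsh, Lamp1 and Mcoln1 but not for Ctsl, Gla, Gaa and Naglu. The window of Lamp1 holds 4 copies and those of Gla, Mcoln1 and Ctsd 2 each, of which 1 is shown. Ctsd is at chr7:142387908-142387937 (minus strand, motif centred at -95), Ctsl at chr13:64370739-64370768 (minus, -233), Gla at chrX:134601215-134601244 (minus, -224), Gaa at chr11:119267811-119267840 (plus, -137), Naglu at chr11:101070009-101070038 (plus, -70), Sgsh at chr11:119355522-119355551 (minus, -26), Lamp1 at chr8:13159088-13159117 (plus, -58) and Mcoln1 at chr8:3500436-3500465 (plus, -68).
Ctsd: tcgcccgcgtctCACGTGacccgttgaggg
Ctsl: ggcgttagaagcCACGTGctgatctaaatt
Gla: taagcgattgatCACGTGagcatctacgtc
Gaa: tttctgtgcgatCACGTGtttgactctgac
Naglu: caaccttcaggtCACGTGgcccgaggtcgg
Sgsh: gggcctgccgtgCACGTGaccgtggggagc
Lamp1: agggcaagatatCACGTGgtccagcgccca
Mcoln1: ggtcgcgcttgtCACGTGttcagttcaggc
A match describes the letters of the window and not a bound site, and a window without a match says nothing of sequence outside it.

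Both cell types expressed every member in the controls, at different proportions. Per kilobase of exon, Psap, the precursor of the saposins that present sphingolipids to their enzymes, led in control monocytes with a mean of 3710 CPM per kb, 28.4% of the sum over members, followed by the cysteine cathepsin Ctss at 2760 and Ctsz at 1080. In control alveolar macrophages the aspartic protease Ctsd led with 3480 CPM per kb (25.5% of the sum), followed by Psap at 2340 and Ctss at 2260. The lowest levels per kb were those of Mitf in monocytes (2.03) and of Sgsh, the heparan sulfate sulfamidase, in macrophages (0.641). Between control groups, 11 members were higher and 18 lower in macrophages, where 24.5% of all 26692 genes tested were called higher and 19.7% lower, and among well-expressed genes 25.1% and 39.9%. The second scaling gave 12 higher and 15 lower, where 62.9% of well-expressed genes were called in either direction. Upper quartile scaling gave 11 and 20 (72.5% of well-expressed genes). Library size scaling turned the balance, with 13 higher and 7 lower (60.4% of well-expressed genes). The median log2 difference of members was -0.31, equal to that of well-expressed genes, and 0.11 against 0.18 with library size scaling.

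Among proteases, Ctsd was at 7440, 8760, 8400 and 8150 CPM in control macrophages and at 602, 820, 1820 and 778 in control monocytes, a log2 difference of 2.66 ± 0.33 (SE, adjusted p = 1.1e-06). Ctsk, a collagen-degrading cysteine cathepsin, was at 602, 947, 563 and 659 CPM in macrophages against 3.48, 19, 54 and 33.2 in monocytes (log2 difference 4.28 ± 0.72, adjusted p = 7.69e-05). Neither pair of groups overlapped, and the highest monocyte value of both genes was that of control sample 3. Ctsb ran the other way, at 1540 to 1750 CPM in macrophages and 3600 to 4340 in monocytes (log2 difference -1.60 ± 0.15, adjusted p = 1.77e-09). Among glycan enzymes Sgsh differed most, at 1.51, 2.51, 4.78 and 2.52 CPM in macrophages and 58.9, 42.9, 49.9 and 39.1 in monocytes (log2 difference -4.42 ± 0.27, adjusted p = 6.79e-13). Naglu, which acts on the same polymer, was higher in macrophages (128, 134, 152 and 159 CPM against 5.14, 10.1, 41.9 and 26.6; log2 difference 2.40 ± 0.53, adjusted p = 0.000977). The 2 heparan sulfate enzymes thus differed in opposite directions, without overlap between the groups for either. A part of the Sgsh exons (21.64% of bases) overlaps Card14 on the other strand, and a part of those of Ctsd (34.37%) overlaps Gm49369 on the same strand. Use of strand in counting is not given in the sources used here.

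Of the 9 lipid genes, 2 were higher in control macrophages and 7 lower. Npc1, the membrane protein that moves cholesterol out of the lysosome, was at 322, 299, 335 and 375 CPM in macrophages and 22.2, 28.9, 54.8 and 63.4 in monocytes (log2 difference 2.60 ± 0.28, adjusted p = 4.59e-08), whereas its soluble partner Npc2 was lower (-0.76 ± 0.13, adjusted p = 1.99e-05). Lipa, the acid lipase of cholesteryl esters, was also higher in macrophages (1.28 ± 0.16, adjusted p = 3.55e-07). Gm2a, the activator of ganglioside breakdown, was at 459, 412, 544 and 465 CPM in macrophages and 2400, 2540, 2020 and 2010 in monocytes (-2.62 ± 0.17, adjusted p = 1.17e-12). Among membrane proteins Lamp1, Mcoln1 and Scarb2 were higher and Lamp2 and Laptm5 lower in macrophages, with Lamp1 at 1270 to 1440 CPM against 133, 126, 291 and 318 (2.27 ± 0.30, adjusted p = 1.76e-06). The MiT/TFE factors split too, with Mitf higher in macrophages (45.5 to 59.2 CPM against 11.1 to 14.5; 1.65 ± 0.22, adjusted p = 7.65e-07), Tfe3 lower (64 to 72 CPM against 103 to 182; -1.46 ± 0.15, adjusted p = 7e-09) and Tfeb not called (-0.29 ± 0.20, adjusted p = 0.266). Leaving out control monocyte samples 3 and 4, an alternative chosen after seeing the data, again gave 11 higher and 18 lower. There 70.1% of well-expressed genes were called in either direction.

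**Figure D1:**
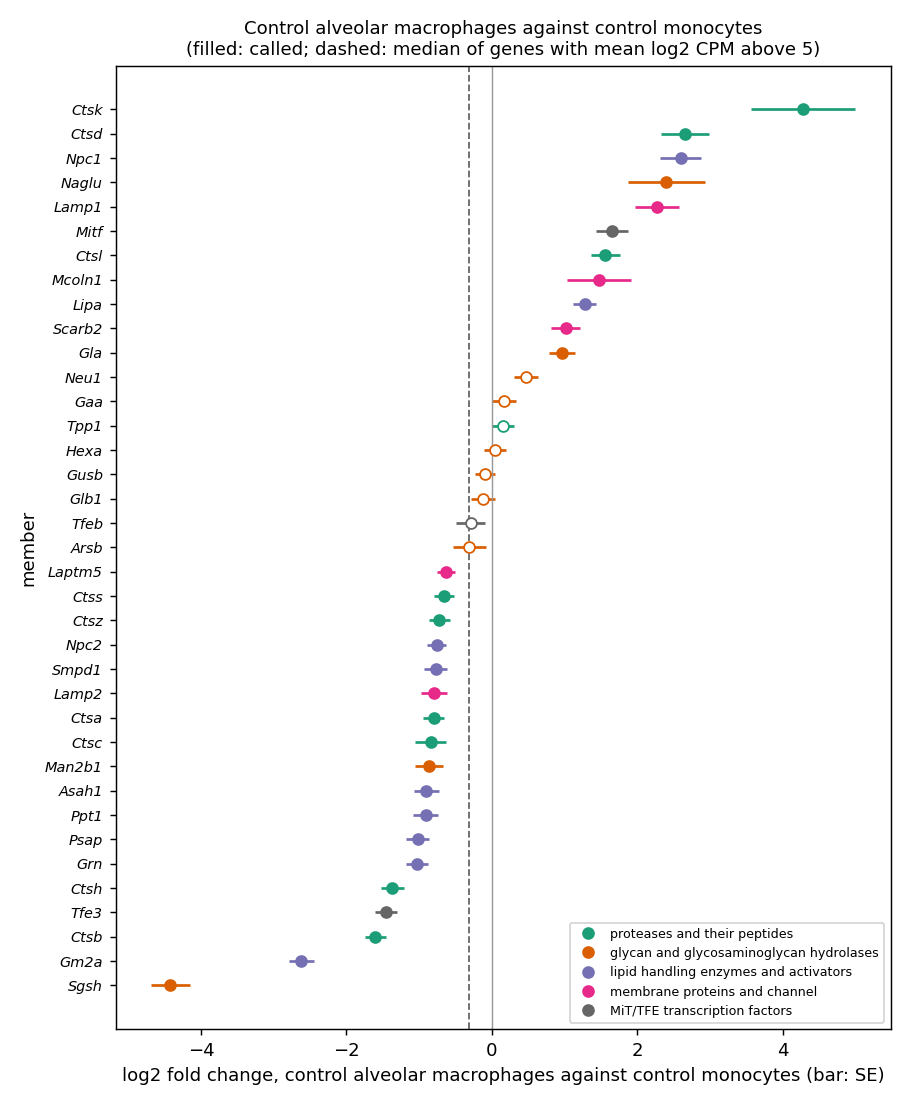
Log2 fold change (x axis) of each of the 37 members (y axis) between control alveolar macrophages (n = 4) and control monocytes (n = 4), with bars for the SE, filled points for called members and colour for role. Ctsk at 4.28, Ctsd at 2.66 and Npc1 at 2.60 lie at the macrophage end and Sgsh at -4.42 and Gm2a at -2.62 at the monocyte end, and the dashed line at -0.31 is the median of well-expressed genes.

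In monocytes at 3 d the members were lower to about the same extent as other well-expressed genes. Of the 37, 21 were called lower and none higher under TMM over all genes, where 14.4% of the 22353 genes tested and 42% of well-expressed genes were called lower (36.8% and 1.15% higher), whereas the second scaling left 1 lower (Sgsh) and called 1 higher (Ctsl). The members' median log2 fold change was -0.62 against -0.55 for well-expressed genes and 0.22 for all genes, and under the second scaling it was -0.10. That scaling called 8.48% of well-expressed genes in either direction, with a median of -0.03. In bulk samples such as these, fewer cells of a type and less RNA per cell cannot be told apart. By role, 7 of 9 lipid genes, 5 of 10 glycan enzymes, 5 of 10 proteases, 2 of 5 membrane proteins and 2 of 3 MiT/TFE factors were called lower. Without sample 3 of the 3 d group the number of members called was 13, where 30.6% of well-expressed genes were called in either direction.

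Sgsh was at 58.9, 42.9, 49.9 and 39.1 CPM in control monocytes and 26.7, 22.6, 17.7 and 19.1 at 3 d (log2 fold change -1.15 ± 0.19, adjusted p = 0.000683). Lipa was at 338, 270, 229 and 206 CPM in controls and 145, 101, 113 and 128 at 3 d (-1.10 ± 0.18, adjusted p = 0.000755). In neither gene did the groups overlap. Sgsh kept its call in each of the 11 alternative settings and without any 1 sample, and Lipa in all but the second scaling. Gaa, the enzyme of glycogen breakdown, was at 120, 114, 114 and 55.6 CPM in controls and 50.6, 55.2, 48.1 and 54.6 at 3 d (-0.95 ± 0.20, adjusted p = 0.00213). Scarb2, a membrane protein that carries glucocerebrosidase to the lysosome, was at 121, 183, 208 and 200 CPM and then at 106, 108, 98.5 and 59.6 (-0.94 ± 0.22, adjusted p = 0.00333). Control sample 4 lay near the 3 d values of Gaa and control sample 1 near those of Scarb2, without an overlap in either gene. Arsb, a sulfatase of dermatan and chondroitin sulfate, was at 23.1, 34.7, 45.8 and 37.7 CPM in controls and 20.2, 28.7, 13 and 12 at 3 d, with 1 overlapping pair of samples (-0.93 ± 0.27, adjusted p = 0.0113). Without sample 3 of the 3 d group it was not called (-0.73, adjusted p = 0.0573). Gm2a was at 2400, 2540, 2020 and 2010 CPM in controls and 1000, 1190, 1060 and 1560 at 3 d (-0.90 ± 0.16, adjusted p = 0.000914).

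Of the MiT/TFE factors, Tfe3 and Tfeb were called lower at 3 d and Mitf was not. Tfe3 was at 149, 182, 148 and 103 CPM in control monocytes and 82.9, 75.1, 83.9 and 76 at 3 d (-0.87 ± 0.17, adjusted p = 0.00136). Tfeb was at 78.4, 85.7, 131 and 105 CPM and then 63.5, 67.4, 50.2 and 37.2 (-0.87 ± 0.23, adjusted p = 0.00689). Both groups were separate, and neither gene was called under the second scaling. Mitf was at 14.5, 11.9, 11.1 and 12.6 CPM in controls and 11.9, 8.89, 16.4 and 7.53 at 3 d, overlapping and not called (-0.17 ± 0.27, adjusted p = 0.615). The summed level of the 14 alveolar macrophage markers was 8710 to 15500 CPM in control monocytes and 4440 to 9180 at 3 d, with 9 of 14 called lower. That of the 14 T, NK and B cell markers was 422 to 1560 and 46.2 to 318, with 10 of 14 lower. In this comparison 14.4% of all genes tested and 42% of well-expressed genes were called lower. The part of these other cells in the members' values at 3 d was not tested. Without control samples 3 and 4, 24 members were lower and none higher, with a median of -0.82. In that setting 50.3% of well-expressed genes were called in either direction, with a median of -0.6. Tfeb (-0.65, adjusted p = 0.0515) and Arsb (-0.71, adjusted p = 0.0757) were then not called.

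**Figure D2:**
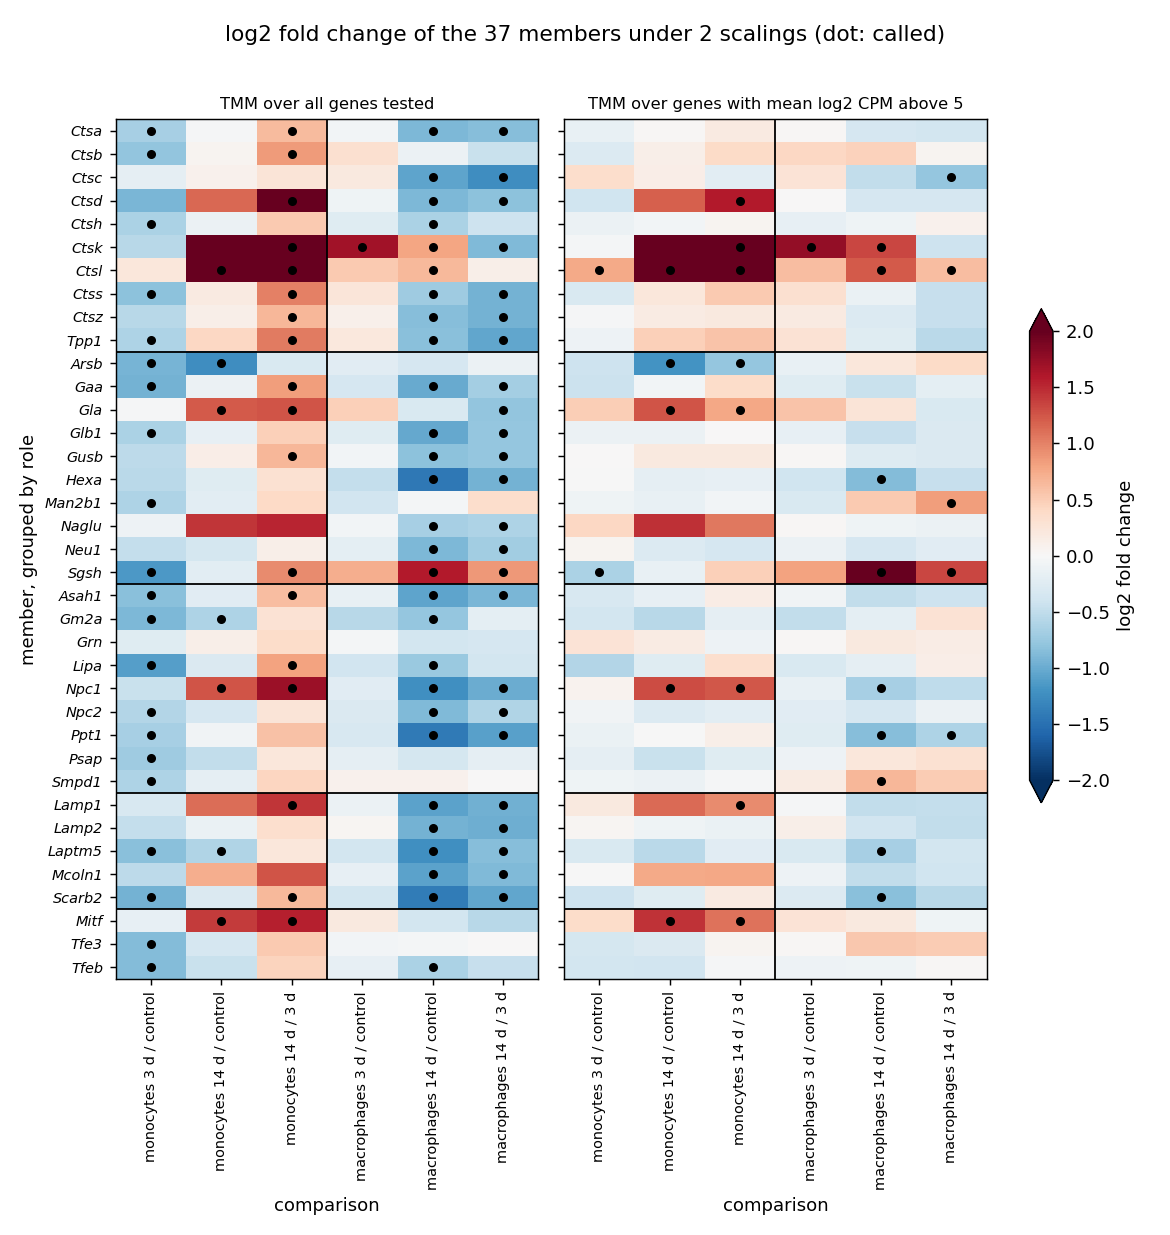
Log2 fold change (colour, ends at -2 and 2) of the 37 members (rows, grouped by role) in the 6 comparisons within a cell type (columns), with TMM factors from all genes tested at left and from well-expressed genes at right; a dot marks a called member. The 21 dots of monocytes at 3 d become 2 under the second scaling and the 28 of macrophages at 14 d become 9, while the dots of Ctsl, Mitf, Gla and Npc1 in monocytes at 14 d are present in both.

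In monocytes at 14 d, a small set of members rose, led by the cysteine cathepsin Ctsl, and most of the list stood near its control level. Against control, 4 members were higher (Ctsl, Mitf, Npc1 and Gla) and 3 lower (Arsb, Gm2a and Laptm5), where 3.22% of the 22353 genes tested were called higher and 5.34% lower, and 4.28% and 12.5% of well-expressed genes. The second scaling kept the 4 higher and Arsb, where 15.7% of well-expressed genes were called in either direction. The members' median log2 fold change was -0.11, against -0.07 for well-expressed genes. The number of members called was 4 without control sample 1, without control sample 2 or without sample 2 of the 14 d group. In these settings 12.6%, 12.5% and 11.3% of well-expressed genes were called in either direction.

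Ctsl was at 82.7, 71.4, 85.5 and 85.7 CPM in control monocytes, 115, 74.4, 110 and 81.5 at 3 d, and 520, 759, 1010 and 681 at 14 d. All 14 d samples lay above every control and 3 d sample. Control samples 3 and 4, with more Krt79, had a Ctsl level like that of samples 1 and 2. Control macrophages had a mean of 310 CPM of Ctsl, so this comparison cannot show a small admixture of them. The part of such cells in Ctsl was not tested. The log2 fold change was 3.19 ± 0.21 against control (adjusted p = 1.57e-06) and 2.96 ± 0.21 against 3 d (adjusted p = 3.14e-06), and it was called in every alternative and without any 1 sample. Of the Ctsl exons, 26.85% of bases overlap Gm47123 on the other strand and 6.09% Gm49230 on the same strand. Gla, the alpha-galactosidase of glycosphingolipids, was at 26.3, 28.2, 24.6 and 26.7 CPM in controls, 26.2, 24.9, 27.4 and 24.8 at 3 d, and 48.8, 51.5, 78.3 and 67.4 at 14 d. Control and 3 d values were nearly the same and all 14 d values were above them (1.22 ± 0.16, adjusted p = 0.000281). Gla is X-linked, and the 14 d samples were those with Y-linked counts.

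Mitf was at 14.5, 11.9, 11.1 and 12.6 CPM in control monocytes and 19.4, 30.7, 41.8 and 40.3 at 14 d, without overlap (1.40 ± 0.27, adjusted p = 0.00423). The other 2 factors did not pass the test. Tfe3 was at 103, 101, 121 and 135 CPM at 14 d against 149, 182, 148 and 103 (-0.34 ± 0.16, adjusted p = 0.246). Tfeb was at 50.8, 67.3, 86.4 and 91.3 against 78.4, 85.7, 131 and 105 (-0.44 ± 0.23, adjusted p = 0.293). Npc1 was at 22.2, 28.9, 54.8 and 63.4 CPM in controls and 58.5, 110, 130 and 108 at 14 d. The lowest 14 d value lay below the highest control value, that of control sample 4 (1.26 ± 0.33, adjusted p = 0.0277). Its call was lost when any 1 of 5 samples was left out, control sample 1 or 2 or 14 d sample 2, 3 or 4. The log2 fold changes were then 1.05, 1.12, 1.23, 1.11 and 1.19, with adjusted p of 0.0666, 0.0917, 0.0671, 0.0924 and 0.0555. It was 2.00 (adjusted p = 0.00153) without control samples 3 and 4.

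Arsb was at 23.1, 34.7, 45.8 and 37.7 CPM in controls and 15.4, 12, 15.2 and 17.1 at 14 d, without overlap (-1.24 ± 0.28, adjusted p = 0.0104); without control samples 3 and 4 its adjusted p was 0.0770. Its exons overlap Gm26527 on the other strand over 32.27% of bases. Gm2a was at 2400, 2540, 2020 and 2010 CPM in controls and 1550, 1190, 1540 and 1600 at 14 d (-0.61 ± 0.16, adjusted p = 0.0236). Laptm5, a lysosomal membrane protein of blood cells that lowers surface receptors, was at 4110, 3940, 3990 and 3230 CPM and then 2620, 2250, 2600 and 2600 (-0.60 ± 0.12, adjusted p = 0.00424). The groups of both genes were apart, but both lie close to the fold threshold. Gm2a lost its call without control sample 1 (-0.57, adjusted p = 0.0685), control sample 2 (-0.54, 0.0805), 14 d sample 2 (-0.51, 0.122) or 14 d sample 3 (-0.64, 0.0878). Laptm5 lost it without control samples 1 (-0.56), 2 (-0.58) or 3 (-0.57) or 14 d sample 2 (-0.54).

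A second set of members had higher means at 14 d but did not pass the test against control. Ctsd was at 602, 820, 1820 and 778 CPM in controls and 1530, 2110, 3680 and 1560 at 14 d (1.15 ± 0.38, adjusted p = 0.0861). Lamp1 was at 133, 126, 291 and 318 CPM and then 311, 406, 481 and 671 (1.11 ± 0.36, adjusted p = 0.0781). In Ctsd control sample 3 alone overlapped the 14 d range, and in Lamp1 control sample 4 did. Ctsk was at 3.48, 19, 54 and 33.2 CPM in controls and 67.8, 153, 99.4 and 142 at 14 d (2.07 ± 0.75, adjusted p = 0.122). Naglu was at 5.14, 10.1, 41.9 and 26.6 and then 27, 53.5, 78.9 and 66.6 (1.43 ± 0.62, adjusted p = 0.199). In both genes control samples 3 and 4 were the highest controls, as they were for Krt79. Without those 2 samples Naglu (2.90, adjusted p = 0.0341), Lamp1 (1.86, adjusted p = 0.0126) and Ctsd (1.66, adjusted p = 0.0424) were called higher and Psap lower (-0.63), and Arsb was not called (-0.94, adjusted p = 0.0770), giving 7 members higher and 3 lower. Ctsl was then at 3.28 (adjusted p = 1.44e-05). In that setting 21.9% of well-expressed genes were called in either direction.

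**Figure D3:**
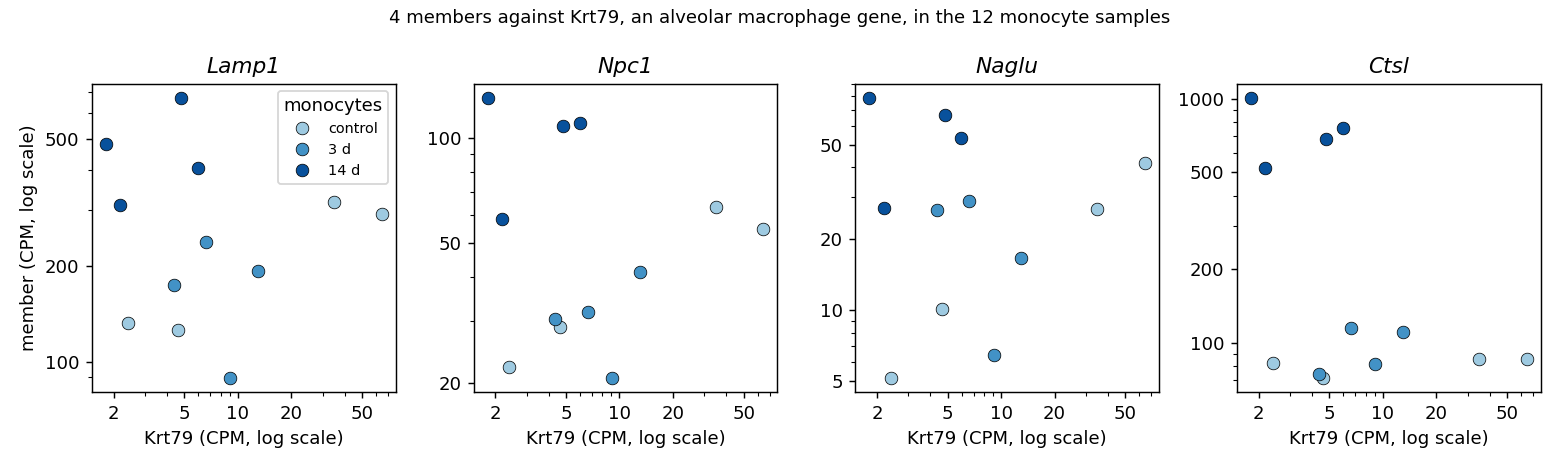
Level of 4 members (y axis, CPM, log scale) against that of Krt79, an alveolar macrophage gene (x axis, CPM, log scale), in the 12 monocyte samples, coloured by group. Control samples 3 and 4, at 64.6 and 34.8 CPM of Krt79, have higher Lamp1, Npc1 and Naglu than control samples 1 and 2 but similar Ctsl (85.5 and 85.7 against 82.7 and 71.4 CPM), and the 14 d samples combine high Ctsl with Krt79 of 1.81 to 5.97 CPM.

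Markers of other cells moved with the 14 d values. Against control, 3.22% of all genes tested were called higher and 5.34% lower, and 4.28% and 12.5% of well-expressed genes. Of 14 markers of monocyte-derived or interstitial macrophages, 7 were called higher and 2 lower, and their summed level was 9200 to 28900 CPM at 14 d against 5770 to 10200 in controls. C1qa, a complement component of tissue macrophages, was at 2.24, 8.39, 12.9 and 6.96 CPM in controls and 118, 196, 322 and 124 at 14 d, and Ly6c2, the sorting marker, at 2570 to 3280 and then 1310 to 1790. Of 14 T, NK and B cell markers 8 were called lower and none higher (summed level 44.3 to 84.8 CPM against 422 to 1560). Of 12 neutrophil markers 2 were called higher and none lower (1060 to 1990 CPM against 585 to 853). The part of these genes in the members' values was not tested. Of 14 alveolar macrophage markers 1 was called higher, Chil3, which Ly6Chi monocytes also express and which made up most of the list's summed level (15900 to 21500 CPM against 8710 to 15500), and 3 were lower. Of the list, Krt79, at 1.81 to 5.97 CPM, and Siglecf, at 2.13 to 5.03 CPM, were near their levels in control samples 1 and 2. The part of alveolar macrophages in the members' values was not tested.

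Between 3 d and 14 d in monocytes, 18 members were called higher and none lower, where 12% of the 22353 genes tested and 29.9% of well-expressed genes were called higher (34.5% and 3% lower), and the second scaling gave 7 higher and 1 lower (Arsb). The members' median was 0.64 against 0.46 for well-expressed genes. The second scaling called 12% of well-expressed genes in either direction. Proteases made up 8 of the 18, glycan enzymes 4, lipid genes 3, membrane proteins 2 and MiT/TFE factors 1. Ctsl, Ctsd, Ctsk, Gla, Lamp1, Npc1 and Mitf were called in every alternative, the second scaling included, and without any 1 sample. Ctsd was at 687, 413, 682 and 346 CPM at 3 d against 1530, 2110, 3680 and 1560 at 14 d (2.06 ± 0.39, adjusted p = 0.00214). Ctsk was at 25.4, 3.91, 32.4 and 12.6 against 67.8, 153, 99.4 and 142 (2.64 ± 0.76, adjusted p = 0.0157). Lamp1 was at 237, 174, 193 and 89.3 CPM at 3 d against 311, 406, 481 and 671 (1.43 ± 0.36, adjusted p = 0.00749). In these 3 genes, and in Npc1 (31.8, 30.4, 41.3 and 20.6 against 58.5, 110, 130 and 108 CPM; 1.71 ± 0.34, adjusted p = 0.00214) and Mitf (1.56 ± 0.27, adjusted p = 0.00134), no 3 d sample reached the lowest 14 d sample. Tpp1, a tripeptidyl peptidase, was at 103, 77.7, 101 and 97.4 CPM and then 177, 158, 234 and 212 (1.04 ± 0.16, adjusted p = 0.000842).

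**Figure D4:**
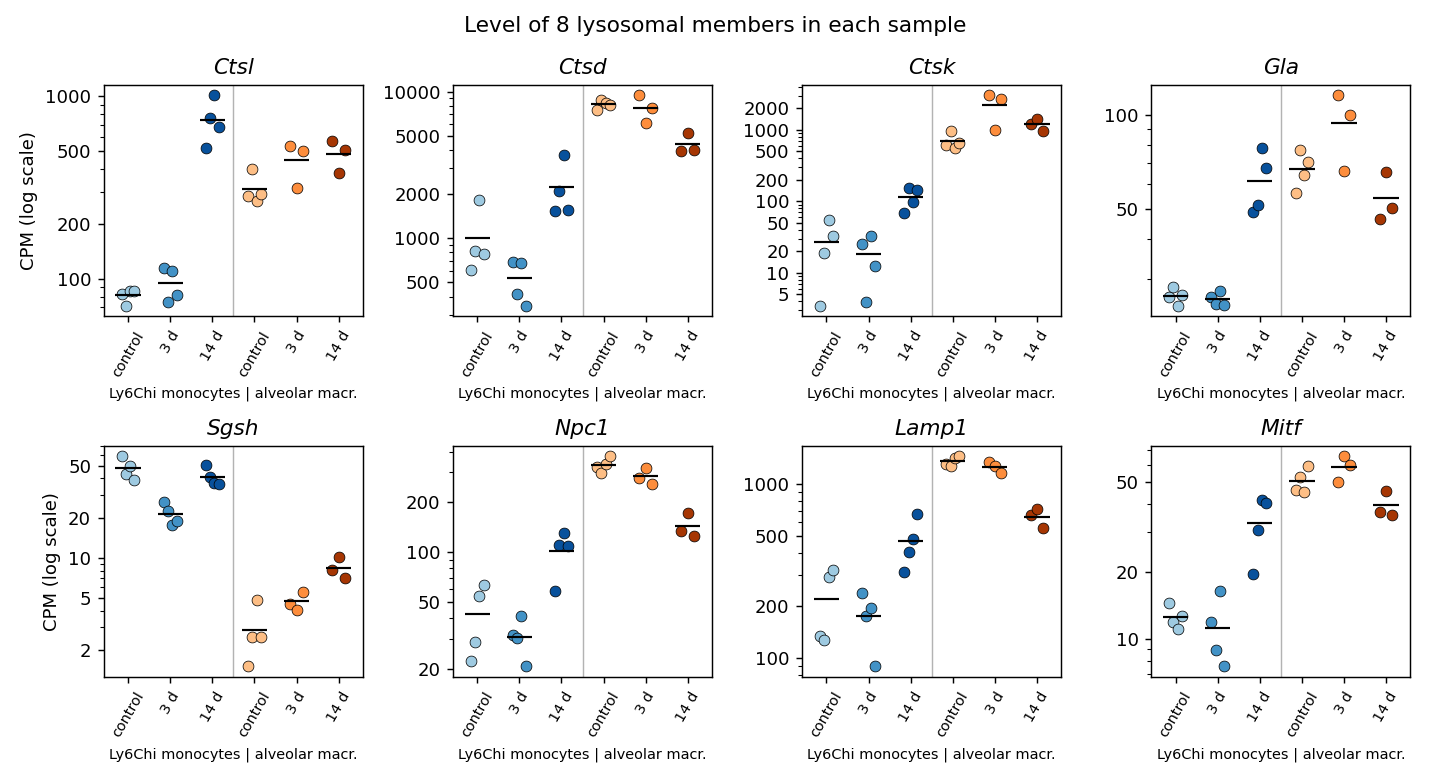
Level (y axis, CPM, log scale) of 8 members in each of the 22 samples, grouped by cell type and time (x axis), with a bar at each group's mean. Ctsl in monocytes is at 71.4 to 115 CPM in control and 3 d samples and at 520 to 1010 at 14 d, above the macrophage controls (267 to 399), while Npc1 and Lamp1 are higher at 14 d in monocytes and lower at 14 d in macrophages.

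In alveolar macrophages at 3 d, 1 member was called, Ctsk, and it was higher. Among the 20944 genes tested 1.05% were called higher and 0.224% lower, and among well-expressed genes 0.63% and 0.54%. Ctsk was at 602, 947, 563 and 659 CPM in controls and 3010, 1000 and 2650 at 3 d. All 3 values were above the controls, 1 of them only just (1.68 ± 0.32, adjusted p = 0.0301). The call was lost when control sample 1, 3 or 4 or 3 d sample 1 or 3 was left out (log2 fold changes of 1.62, 1.59, 1.69, 1.41 and 1.56, adjusted p of 0.0805, 0.0816, 0.0981, 0.138 and 0.261). Sample 2 of the 3 d group was near the controls also in Ear1, an alveolar macrophage gene, at 494 CPM against 52.2 and 70 in the other 2 and 439 to 758 in controls. Without it 4 members were called, Ctsk and also Ctsl (0.78, adjusted p = 0.0120) and Gla (0.72, adjusted p = 0.0103) higher and Gm2a lower (-0.72, adjusted p = 0.00698). In that setting 11.9% of well-expressed genes were called in either direction. The MiT/TFE factors were not called, with Mitf at 50.2, 65.5 and 59.7 CPM against 45.5 to 59.2 (0.20 ± 0.15, adjusted p = 0.579). Tfe3 was at 66.1, 69.5 and 61.3 against 64 to 72 (-0.05 ± 0.12, adjusted p = 0.904), and Tfeb at 101, 105 and 76.5 against 96.5 to 125 (-0.17 ± 0.17, adjusted p = 0.686). Several lists of markers of other cells had higher summed levels at 3 d, with few genes called. Those of lung epithelium were at 653 to 986 CPM against 243 to 353, with 2 of 10 called higher and 1 lower. T, NK and B cell markers were at 207 to 564 CPM against 66.7 to 155, with 0 of 13 called. Dendritic cell markers were at 70.3 to 110 CPM against 20.2 to 31, with 0 of 6 called. Their part in the value of Ctsk was not tested.

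In alveolar macrophages at 14 d most members were lower, as were many other well-expressed genes, and fewer members were called once the scaling was set on well-expressed genes. Under TMM over all genes 25 members were called lower and 3 higher, where 22.9% of the 20944 genes tested were called lower and 39.4% higher, and 47.8% and 5.17% of well-expressed genes, whereas the second scaling called 5 lower (Hexa, Ppt1, Scarb2, Laptm5 and Npc1) and 4 higher (Sgsh, Ctsk, Ctsl and Smpd1). The members' median log2 fold change was -0.82 against -0.56 for well-expressed genes, and -0.25 against 0.02 under the second scaling. That scaling called 29.8% of well-expressed genes in either direction. Of all genes it called, 89.4% were higher. By role, all 5 membrane proteins, 7 of 10 proteases, 6 of 10 glycan enzymes, 6 of 9 lipid genes and 1 of 3 MiT/TFE factors were called lower. The summed level of the members, on TMM-adjusted totals, was 21300 to 27100 CPM at 14 d and 35000 to 38900 in controls. As a share of raw counts it differed less, at 2.73% to 3.15% against 3.29% to 3.48%.

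Hexa, the alpha chain of beta-hexosaminidase, was at 902, 896, 985 and 1050 CPM in controls, 729, 738 and 603 at 3 d, and 337, 411 and 322 at 14 d. Every 3 d value was below the controls and every 14 d value below those of 3 d (14 d against control -1.43 ± 0.15, adjusted p = 2.41e-06; 3 d not called, -0.47 ± 0.14, adjusted p = 0.119). Ppt1, a thioesterase that removes palmitate from proteins, was at 336, 297, 360 and 364 CPM in controls and 136, 147 and 99.2 at 14 d (-1.41 ± 0.20, adjusted p = 2.83e-05). Npc1 was at 322, 299, 335 and 375 CPM and then 133, 172 and 124 (-1.22 ± 0.15, adjusted p = 1.19e-05). No 14 d sample of either gene reached a control. Among membrane proteins, Scarb2 was at 449, 414, 485 and 517 CPM in controls and 173, 222 and 135 at 14 d (-1.40 ± 0.17, adjusted p = 1.16e-05). Laptm5 was at 2910, 3030, 3470 and 3230 and then 1210, 1630 and 1220 (-1.22 ± 0.16, adjusted p = 1.37e-05). These 5 genes were called lower in all 11 alternatives and without any 1 sample. Lamp1 was at 1300, 1270, 1400 and 1440 CPM and then 658, 713 and 559 (-1.07 ± 0.14, adjusted p = 1.66e-05). The calcium channel Mcoln1 was at 92.6, 85.6, 91 and 93.1 and then 41.5, 47.3 and 40.7 (-1.07 ± 0.13, adjusted p = 9.8e-06). Their groups were apart as well, but neither was called under the second scaling.

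The 3 members that rose were Sgsh, Ctsk and Ctsl. Sgsh, which was barely expressed in control macrophages, was at 1.51, 2.51, 4.78 and 2.52 CPM there, 4.51, 4.04 and 5.53 at 3 d, and 8.07, 10.2 and 7.1 at 14 d. The 14 d values lay above all others in macrophages and below all values in monocytes (1.58 ± 0.34, adjusted p = 0.00085). Ctsk was at 1210, 1420 and 954 CPM at 14 d against 602, 947, 563 and 659 in controls (0.79 ± 0.32, adjusted p = 0.0446). Ctsl was at 570, 381 and 507 against 283, 399, 267 and 291 (0.65 ± 0.20, adjusted p = 0.00869). In Ctsk the lowest 14 d sample lay just above the highest control, and in Ctsl 1 sample of each group overlapped. The Ctsk call was lost when any 1 sample but control sample 2 was left out (log2 fold changes of 0.73, 0.71, 0.70, 0.74, 0.61 and 0.87, adjusted p of 0.0842, 0.0942, 0.110, 0.103, 0.198 and 0.0928). That of Ctsl was lost without control sample 4 (0.56, adjusted p = 0.0432) or 14 d sample 1 (0.48, adjusted p = 0.0721) or 3 (0.56, adjusted p = 0.0449). Of the MiT/TFE factors, Tfeb was at 68.4, 83.7 and 52.6 CPM against 125, 107, 96.5 and 96.6 (-0.63 ± 0.17, adjusted p = 0.00392). This call was lost under the second scaling and without control sample 1 or 14 d sample 3 (-0.54 in both). Tfe3 was at 61.5, 67.9 and 68.6 CPM (-0.04 ± 0.12, adjusted p = 0.790) and Mitf at 37, 45.7 and 35.7 against 45.5 to 59.2 (-0.36 ± 0.15, adjusted p = 0.0427, under the fold threshold).

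Macrophage samples at 14 d also differed in their markers. These are given under TMM over all genes only, where 22.9% of all genes tested were called lower and 39.4% higher. Of well-expressed genes 47.8% were called lower and 5.17% higher, with a median log2 fold change of -0.56. Of 14 alveolar macrophage markers 11 were called lower and none higher (summed level 23600 to 29900 CPM against 32200 to 36900), with Krt79 at 115, 136 and 166 CPM against 647 to 1010 and Siglecf, the sorting marker, at 120, 127 and 90.1 against 231 to 348. Neutrophil markers were called higher in 9 of 10 that were tested (summed level 466 to 1800 CPM against 116 to 236), with S100a8 at 514, 663 and 105 CPM against 4.85 to 7.68. Endothelial and fibroblast markers were higher in 6 of 7 (173 to 356 CPM against 23.3 to 33.6), and eosinophil markers in 4 of 5 (48.3 to 137 CPM against 8.72 to 12.1). Of 14 markers of monocyte-derived or interstitial macrophages 8 were higher and 6 lower (5590 to 6120 CPM against 3950 to 5360), with C1qa at 154, 61 and 157 CPM against 0.411 to 4. Of 9 classical monocyte markers 5 were higher and none lower (536 to 728 CPM against 345 to 412), and the monocyte sorting marker Ly6c2 was at 1.18 to 6.19 CPM. The part of these other cells, of the lower depth and of sex in the members' values was not tested.

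Between 3 d and 14 d in macrophages, 23 members were called lower and 1 higher (Sgsh), where 20% of the 20944 genes tested and 42.6% of well-expressed genes were called lower and 36.3% and 4.12% higher, and the second scaling gave 2 lower (Ctsc and Ppt1) and 3 higher (Sgsh, Man2b1 and Ctsl). Under the second scaling 24.3% of well-expressed genes were called in either direction. Ctsc, a dipeptidyl peptidase that activates granule proteases, was at 1510, 1450 and 1380 CPM at 3 d and 653, 755 and 415 at 14 d (-1.25 ± 0.20, adjusted p = 0.000216). Ppt1 went from 228, 370 and 218 CPM to 136, 147 and 99.2 (-1.09 ± 0.20, adjusted p = 0.000521), and Tpp1 from 271, 224 and 233 to 111, 114 and 130 (-1.04 ± 0.14, adjusted p = 5.48e-05). No 14 d value of these 3 genes reached a 3 d value. Sgsh rose by 0.86 ± 0.36 (adjusted p = 0.0496), and its call was lost when any 1 of the 6 samples was left out, with log2 fold changes of 0.53 to 0.91. That of Ctsk (-0.89 ± 0.35, adjusted p = 0.0408) was lost without any sample but 3 d sample 2. Scarb2 was at 378, 404 and 307 CPM at 3 d (-1.04 ± 0.18, adjusted p = 0.00034), Npc1 at 279, 318 and 257 (-0.99 ± 0.16, adjusted p = 0.000193) and Lamp1 at 1340, 1270 and 1150 (-0.96 ± 0.15, adjusted p = 0.000132), all above their 14 d values. The other called members, with log2 fold changes of -0.98 to -0.60, were Lamp2, Hexa, Ctss, Ctsz, Asah1, Mcoln1, Ctsa, Laptm5, Ctsd, Gla, Glb1, Gusb, Neu1, Gaa, Naglu and Npc2.

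**Figure D5:**
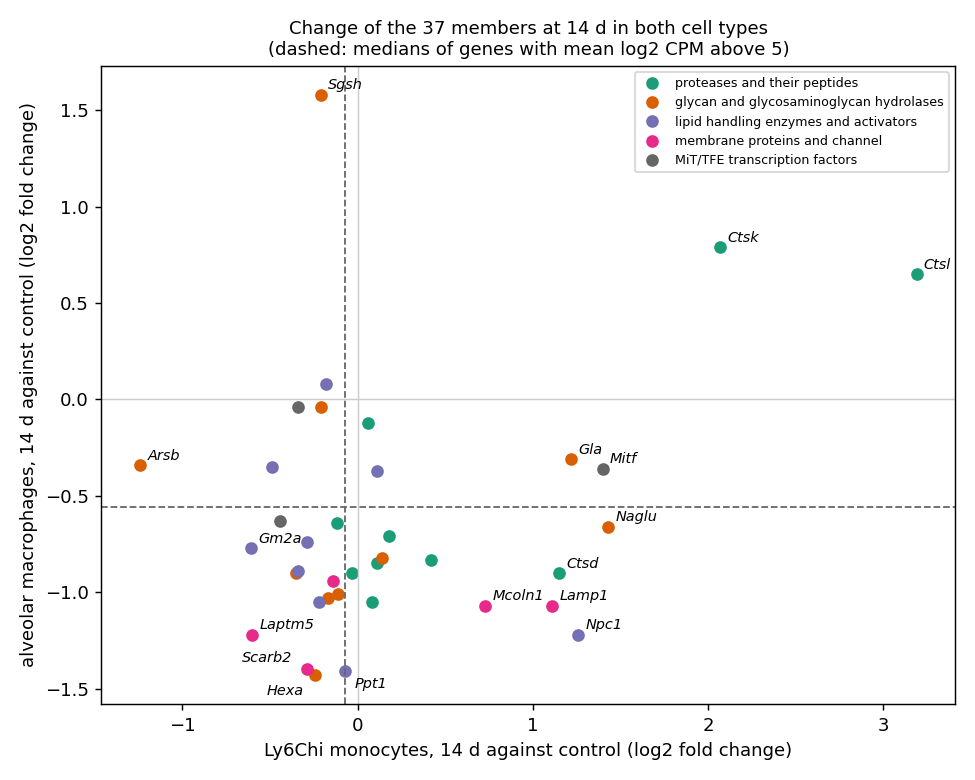
Log2 fold change at 14 d against control of each member in monocytes (x axis) and in alveolar macrophages (y axis), coloured by role, with dashed lines at the medians of well-expressed genes (-0.07 and -0.56). Ctsl lies at 3.19 and 0.65, Npc1 at 1.26 and -1.22, Mitf at 1.40 and -0.36, and Sgsh at -0.21 and 1.58; the controls of the 2 axes are different samples.

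The difference between the cell types in the change after tamoxifen was tested as an interaction over all 22 samples, on the 26692 genes tested jointly. At 3 d, 5 members were called, all with a more positive change in macrophages, where 3.51% of all genes and 10.8% of well-expressed genes were called in that direction (15.2% and 0.898% in the other). These were Sgsh (1.67 ± 0.36, adjusted p = 0.00424), Ctsb (0.94 ± 0.22, adjusted p = 0.00611), Ctss (0.88 ± 0.20, adjusted p = 0.0055), Tpp1 (0.65 ± 0.21, adjusted p = 0.0359) and Tfe3 (0.64 ± 0.22, adjusted p = 0.0397). Ctsb, a cysteine cathepsin, was at 4060, 4340, 3750 and 3600 CPM in control monocytes and 2220, 1970, 2150 and 2750 at 3 d, and in macrophages at 1540, 1750, 1700 and 1710 and then 2640, 1580 and 2070. Ctss, which trims antigen in phagocytes, was at 3860, 3810, 3350 and 3950 CPM in monocytes and then 1800, 2010, 2250 and 2410, and in macrophages at 2880, 3260, 3030 and 3100 and then 3530, 3670 and 3670. Both enzymes were thus lower at 3 d in all monocyte samples, Ctss was higher in all 3 macrophage samples and Ctsb in 2 of 3. Under the second scaling neither enzyme was called lower in monocytes at 3 d. The interactions of Sgsh, Ctsb and Ctss were called under the second scaling too, where 5.9% of well-expressed genes were called in either direction. The number called was 17, all in the same direction, without control monocyte samples 3 and 4. In that setting 31.7% of well-expressed genes were called in either direction, with a median of 0.58 against 0.69 for members. The number called was 3 without control monocyte sample 2, 3 d monocyte sample 2, control macrophage sample 1 or 2 or 3 d macrophage sample 1. In that order 10.6%, 8.81%, 7.04%, 7.54% and 6.62% of well-expressed genes were called in either direction.

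At 14 d, 27 members had a more negative change in macrophages than in monocytes and 1, Sgsh, a more positive one (1.43 ± 0.36, adjusted p = 0.00388), where 19.9% of all genes and 55.5% of well-expressed genes were called in the negative direction and 16.9% and 4.1% in the positive one. The median of members was -1.22 against -0.85 for well-expressed genes, and the second scaling called 9 negative and 5 positive. The share of all genes called under that scaling is not given here. Ctsl differed most (-2.87 ± 0.30, adjusted p = 5.1e-07): it was called higher in both cell types, by a larger amount in monocytes. Npc1 (-2.82 ± 0.41, adjusted p = 2.42e-05) was called in opposite directions in the 2 cell types. Lamp1 (-2.52 ± 0.44, adjusted p = 0.000216), Ctsd (-2.39 ± 0.47, adjusted p = 0.000781) and Mcoln1 (-2.14 ± 0.64, adjusted p = 0.0154) fell in macrophages under TMM over all genes and had a higher mean in monocytes that did not pass the test. None of them was called lower in macrophages under the second scaling. Mcoln1 was at 7.83, 16.9, 39.5 and 36.3 CPM in control monocytes and 14.2, 35.1, 52.4 and 65.5 at 14 d. Naglu (-2.43 ± 0.76, adjusted p = 0.0198) went from 128, 134, 152 and 159 CPM to 88.7, 104 and 79.1 in macrophages. Without control monocyte samples 3 and 4, 22 members were called negative and 1 positive. The Mitf interaction was -2.11 ± 0.33 (adjusted p = 4.18e-05) and those of Tfeb (-0.54 ± 0.30, adjusted p = 0.154) and Tfe3 (-0.04 ± 0.22, adjusted p = 0.902) were not called.

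Other genes of the lysosomal system were read from companion lists. In monocytes at 14 d, 3.22% of all genes tested were called higher and 5.34% lower, and among well-expressed genes 4.28% and 12.5%. In monocytes at 14 d, 2 of 17 V-ATPase subunits were called higher and none lower, Atp6v0a1 (37.4, 50, 43.3 and 30 CPM in controls against 85.1, 113, 140 and 146; 1.59 ± 0.25, adjusted p = 0.000889) and Atp6v0c (409, 428, 418 and 313 against 563, 657, 856 and 640; 0.79 ± 0.16, adjusted p = 0.00637). Of 27 other hydrolases 4 were higher and none lower: the asparaginyl protease Lgmn (1.19 ± 0.22, adjusted p = 0.00266), the thiol reductase Ifi30 (1.00 ± 0.15, adjusted p = 0.000587), the acid nuclease Dnase2a (0.94 ± 0.27, adjusted p = 0.0427) and Galc, which degrades galactosylceramide (0.75 ± 0.22, adjusted p = 0.0467). In Lgmn, at 223, 270, 230 and 281 CPM and then 413, 550, 769 and 563, all 14 d samples were above all controls. Of 19 other membrane proteins 2 were higher and 1 lower, with the tetraspanin Cd63 at 6.22, 21.6, 65.1 and 33.6 CPM in controls and 342, 800, 1130 and 626 at 14 d (4.52 ± 0.97, adjusted p = 0.0142). Gpnmb, a glycoprotein of maturing macrophages, was at 7.62, 14.7, 54.8 and 35.8 CPM and then 93.4, 163, 565 and 216 (3.20 ± 0.88, adjusted p = 0.046). Slc11a1, a metal ion transporter of phagosomes, was at 577 to 616 and then 302 to 424 (-0.74 ± 0.15, adjusted p = 0.00541).

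Of the 4 inhibitors of cysteine cathepsins tested in monocytes, 2 were called higher and 2 lower at 14 d. Cstb, a cytosolic inhibitor, was at 195, 245, 254 and 223 CPM in controls and 445, 796, 984 and 658 at 14 d (1.65 ± 0.24, adjusted p = 0.000452). Stfa1 was listed at 0 in all 4 controls and at 0.649, 0.69, 0.373 and 0 CPM at 14 d. Cst3, a secreted inhibitor, was at 3770, 4060, 4740 and 4440 CPM and then 2590, 2540, 2640 and 2190 (-0.77 ± 0.14, adjusted p = 0.00252). Cst7 was at 5.47, 14.3, 34.1 and 27.1 and then 7.47, 7.15, 3.67 and 5.36 (-1.77 ± 0.45, adjusted p = 0.0232). The groups of Cstb and Cst3 were apart, and those of Cst7 overlapped. Among 14 genes of delivery to the lysosome, the mannose 6-phosphate receptor Igf2r was higher (1.41, 2.15, 7.04 and 8.22 CPM against 10.3, 20.1, 34.3 and 30; 2.33 ± 0.52, adjusted p = 0.0115). The adaptor Gga3 was lower (-0.67 ± 0.19, adjusted p = 0.0364), but not under the second scaling. Of 20 genes of nutrient sensing upstream of the MiT/TFE factors Fnip2 was called higher (1.5 ± 0.23, adjusted p = 0.000697), and of 15 autophagy genes Wipi1 (1.15 ± 0.25, adjusted p = 0.00927). The median log2 fold changes of these lists, -0.19 to 0.28 over V-ATPase, hydrolases, membrane proteins, delivery, sensing and autophagy, lay around the -0.07 of well-expressed genes.

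In alveolar macrophages at 14 d many genes of the companion lists were called lower, in numbers that depended on the scaling. Of all genes tested 22.9% were called lower and 39.4% higher, and of well-expressed genes 47.8% and 5.17%. The second scaling called 29.8% of well-expressed genes in either direction. Of 17 V-ATPase subunits 12 were called lower and none higher, 4 of them also under the second scaling: Atp6v0d2 (1040, 1050, 1060 and 1200 CPM in controls against 374, 501 and 349; -1.42 ± 0.16, adjusted p = 5.63e-06), Atp6v0e (-1.30 ± 0.15), Atp6v1g1 (-1.29 ± 0.16) and Atp6v1e1 (-1.28 ± 0.15). Of 26 other hydrolases 17 were lower and 1 higher (5 and 2 under the second scaling). Pla2g15, the lysosomal phospholipase, led them at 733, 746, 845 and 800 CPM in controls, 435, 522 and 350 at 3 d, and 168, 203 and 156 at 14 d (-2.15 ± 0.16, adjusted p = 3.92e-07), in steps that did not overlap. The cysteine cathepsins Ctsf (-1.61 ± 0.24) and Ctso (-1.23 ± 0.16) were lower under both scalings. Of 20 other membrane proteins 13 were lower and 1 higher (5 and 3), with Gpnmb at 501, 453, 346 and 596 CPM and then 121, 173 and 191 (-1.55 ± 0.36, adjusted p = 0.00308), Mfsd12 at -1.47 ± 0.14 and the cystine exporter Ctns at -1.30 ± 0.15. Slc11a1 rose from 3.36, 3.5, 3.93 and 4.38 CPM to 51.1, 40.5 and 54.8 (3.68 ± 0.39, adjusted p = 1.04e-05), where monocytes were at 234 to 616. The part of the other cells whose markers were higher in these samples was not tested.

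Of 14 delivery genes 8 were lower and 2 higher (2 and 3 under the second scaling). Igf2r rose here too, from 3.49, 7.07, 5.9 and 3.12 CPM to 46.4, 39.2 and 34.3 (3.03 ± 0.29, adjusted p = 2.19e-06). The sorting receptor Sort1 fell from 1080, 907, 1270 and 1340 CPM to 319, 450 and 300 (-1.69 ± 0.27, adjusted p = 0.000127). Nagpa and Gnptab, the 2 enzymes that build the mannose 6-phosphate tag, were at -1.34 ± 0.15 (adjusted p = 5.11e-06) and -1.08 ± 0.17 (adjusted p = 6.56e-05), the latter not called under the second scaling. Among 20 sensing genes 8 were lower and 3 higher (1 and 6), among them Rragd, a Rag GTPase, at 0.479, 1.29, 0.524 and 0.664 CPM in controls and 6.19, 5.54 and 3.21 at 14 d (2.75 ± 0.42, adjusted p = 5.95e-05). Rragb was at 2.07 ± 0.35 (adjusted p = 0.000128), and Flcn, a partner of the Rag GTPases, at 77, 72.1, 70.6 and 75.6 CPM and then 29.1, 32.5 and 22.8 (-1.39 ± 0.16, adjusted p = 7.27e-06). Lamtor3 was called lower (-1.10 ± 0.14, adjusted p = 1.72e-05) but not under the second scaling. Of 15 autophagy genes 9 were lower and 1 higher (none and 2), led by Map1lc3b (-1.07 ± 0.16), Nbr1 (-0.99 ± 0.14), Gabarapl1 (-0.86 ± 0.15) and Gabarap (-0.84 ± 0.15), none of them called under the second scaling. Of 3 cathepsin inhibitors Cst7 was higher, at 0.398 to 0.988 CPM in controls and 6.91, 2.27 and 1.35 at 14 d (2.40 ± 0.57, adjusted p = 0.00176).

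Set beside the promoter letters, the changes of the 10 members with CACGTG and the 23 with windows but without it were as follows, as a description with no test. Between 3 d and 14 d in monocytes the median log2 fold change was 1.25 with the motif (7 of 10 higher) and 0.43 without (8 of 23 higher). At 14 d against control in monocytes it was 0.92 (2 higher, none lower) and -0.21 (1 higher, 3 lower), and at 3 d -0.58 and -0.61. In macrophages at 14 d it was -0.90 with the motif and -0.77 without, and between the control cell types 1.22 (6 higher in macrophages, 2 lower) and -0.66 (4 higher, 13 lower). The members with the motif thus had the higher median in monocytes at 14 d, and the 2 medians lay close together in monocytes at 3 d and in macrophages at 14 d. Of the members that rose in monocytes at 14 d against control, Mitf had windows that do not hold it, and Npc1 had no window on hand.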

How the data were processed

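Ly6Chi CD11b+ monocytes (12 samples) and SigF+CD11b- alveolar macrophages (10 samples) were sequenced from oligo(dT)-selected RNA with paired reads. The authors deposited raw counts of reads per Ensembl gene, without normalization, in a table of 55421 genes for monocytes and one of 31134 for macrophages. The submitters' processing notes name STAR 2.7.2c and 2.7.3a, featureCounts 1.6.3, DESeq2 1.26.0 and 1.28.1 and the GRCm38 (mm10) build; which version made which table, the annotation release and the use of strand are not given in the sources used here. GENCODE vM21 (GRCm38) gave symbols, positions and the length of exons, and named 55240 and 31059 of the identifiers.

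The analysis used edgeR 4.0.16 and limma 3.58.1 under R 4.3.3. After filterByExpr and TMM scaling, each cell type was fitted over its 3 groups with edgeR's robust quasi-likelihood test, which is two-sided. P-values were adjusted by Benjamini-Hochberg across the 22353 and 20944 genes that passed the filter. Calls needed an adjusted p under 0.05 together with a fold change over 1.5. Control cell types and interactions were tested in 1 fit of all 22 samples over the genes of both tables (26692 tested), which were counted separately, so levels set across cell types carry that difference. CPM used TMM factors, per kilobase of exon where genes are compared, and log2 CPM a prior count of 2. Depth ranged from 4610720 to 28789639 counts, where 3 counts, the smallest signal considered, correspond to 0.651 and 0.104 CPM; this covers counting error only.

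The members, the companion and marker lists and the tests were chosen with earlier results of these data known. Values in every sample are given for the called members with the largest changes of each comparison (up to 8, and up to 6 for interactions), for the MiT/TFE factors, and, of the companion lists, for some of up to 4 called genes each at 14 d; markers are named where they move with a result. One companion gene that this rule names is not reported here. Alternatives were DESeq2 1.42.0, library size and upper quartile scaling, TMM factors restricted to well-expressed genes (average log2 CPM over 5), no filter, a stricter filter (average log2 CPM over 1), a non-robust dispersion, calls by adjusted p without the fold, glmTreat, only the groups compared, a replicate block, each sample left out, and, added after seeing the data, control monocyte samples 3 and 4 left out. Groups follow the sample labels, which do not say that samples came from separate mice, so p-values measure the spread between samples. No 2 samples agreed within sampling noise. The procedure was tested on simulated data. Promoter windows came from RefSeq (GRCm38.p6).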

Additional observations from a re-analysis of the deposited data

Results flagged for a closer look

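Within groups of 4 samples, Dixon's test for a single outlying value (95% level) picked out 7 of 148 combinations of member and group. That is about the 1 in 20 that chance gives. In control monocytes sample 4 was low in Gaa (55.6 CPM against 114 to 120) and in Ctsz (1490 CPM against 1580 to 1590). At 3 d monocyte sample 3 was low in Ppt1 (249 CPM against 330 to 339) and sample 4 high in Ctsa (1130 CPM against 976 to 1000). At 14 d monocyte sample 2 was low in Gm2a (1190 CPM against 1540 to 1600) and in Laptm5 (2250 CPM against 2600 to 2620), and sample 3 was high in Ctss (5640 CPM against 3590 to 3880).

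The change after tamoxifen differed between the cell types (interaction, log2 scale, macrophages minus monocytes) for 5 members at 3 d: Sgsh at 1.67, Ctsb at 0.94, Ctss at 0.88, Tpp1 at 0.65 and Tfe3 at 0.64. Control monocyte samples 3 and 4 entered these differences. At 14 d Sgsh was at 1.43 and 27 members were negative. Among proteases, Ctsl was at -2.87, Ctsd at -2.39, Tpp1 at -1.59, Ctsc at -1.48, Ctsz at -1.30, Ctss at -1.23, Ctsa at -1.22 and Ctsh at -0.88. Among glycan enzymes, Naglu was at -2.43, Gla at -1.87, Hexa at -1.54, Gusb at -1.31, Gaa at -1.25, Glb1 at -1.21 and Neu1 at -0.91. Among lipid genes, Npc1 was at -2.82, Ppt1 at -1.69, Asah1 at -1.18, Npc2 at -0.91, Grn at -0.84 and Lipa at -0.80. Lamp1 was at -2.52, Mcoln1 at -2.14, Scarb2 at -1.46, Lamp2 at -1.15 and Laptm5 at -0.98, and Mitf at -2.11. Well-expressed genes had a median of -0.85 in the same contrast, and values near it do not stand apart from that background.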

How the results depend on the processing

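Counts of members called depended mainly on scaling and on the filter. For monocytes at 3 d the count of 21 became 12 with DESeq2, 3 with library size scaling, 3 with upper quartile scaling, 2 with TMM factors from well-expressed genes, 3 with the stricter filter (average log2 CPM over 1) and 7 with glmTreat. Under the same order of library size, upper quartile, well-expressed TMM and stricter filter, 18 members between 3 d and 14 d in monocytes became 9, 9, 8 and 10 (11 with glmTreat), 28 in macrophages at 14 d became 13, 15, 9 and 15, 24 between 3 d and 14 d became 6, 14, 5 and 14 (14 with glmTreat), 5 interactions at 3 d became 3, 3, 3 and 3 (1 with glmTreat), and 28 interactions at 14 d became 16, 15 and 14 under the first 3. In that order, 9%, 10.5%, 8.48% and 11.3% of well-expressed genes were called in monocytes at 3 d. In macrophages at 14 d these shares were 30.8%, 33.2%, 29.8% and 34.4%. Between 3 d and 14 d they were 11.4%, 11.6%, 12% and 10.8% in monocytes and 24.1%, 27.7%, 24.3% and 29.2% in macrophages. For interactions at 3 d they were 5.76%, 7.43%, 5.9% and 5.88%. For those at 14 d the first 2 were 30.2% and 28.9%. DESeq2 called 29.1% in monocytes at 3 d. With glmTreat the shares were 14.3% there, 9.92% and 23.2% between 3 d and 14 d in monocytes and macrophages, and 2.95% for interactions at 3 d. The 7 members of monocytes at 14 d became 3 with glmTreat, 10 with DESeq2 (7 higher and 3 lower) and 8 with upper quartile scaling (6 and 2). In these settings 7.03%, 19.2% and 15.3% of well-expressed genes were called. Ctsk in macrophages at 3 d was lost without the filter, with glmTreat and with only the groups compared (0 members called in each). The interactions of Grn (0.02) and Lipa (0.08) at 14 d changed sign under TMM factors from well-expressed genes. In an alternative added after seeing the data, leaving out control monocyte samples 3 and 4 gave 17 interactions at 3 d. There 31.7% of well-expressed genes were called. The causes were not tested, except that scaling sets the level to which all members are compared.

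Leaving out 1 sample at a time gave 13 to 23 members in monocytes at 3 d, 4 to 8 at 14 d and 14 to 22 between them, 0 to 4 in macrophages at 3 d, 24 to 28 at 14 d and 20 to 27 between them, 29 to 30 between controls, and 3 to 6 and 26 to 29 interactions. In the same order 30.6% to 47.8%, 10.4% to 17.4% and 24.2% to 40.7% of well-expressed genes were called in monocytes. In macrophages 0.125% to 11.9%, 49.8% to 60.2% and 41.6% to 61.9% were called. Between controls 63.1% to 66.4% were called, and for interactions at 3 d 6.62% to 14.4%. The share for interactions at 14 d is not given here.

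Samples with the same replicate number did not deviate together in every pair (correlations of 0.09 to 0.52 between control and 14 d monocytes, and of -0.17 to 0.23 between other groups), so the numbers are not taken as pairs. With a replicate block, 19, 8 and 19 members were called in monocytes (3 d, 14 d and 14 d against 3 d), where 42.4%, 17% and 31.5% of well-expressed genes were called. In macrophages the counts were 0, 27 and 22 (0.45%, 52.4% and 46.5%). There were 27 between controls (56.6%), 3 interactions at 3 d (9.39%) and 27 at 14 d, whose share is not given here. Ctsd in monocytes at 14 d passed with the block (adjusted p = 0.00795). Ctsk in macrophages did not at 3 d (0.248) or 14 d (0.164), nor did the Naglu interaction (0.0595).

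Depth was lowest in macrophages at 14 d, where a floor of 3 counts was up to 0.651 CPM; Sgsh (7.1 to 10.2 CPM) is the member nearest to it.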
